A study of Mus musculus with 13 samples.

Results

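Cathepsins are the proteases that digest protein inside lysosomes, and 10 genes of this system were followed by symbol in the count and FPKM tables: the cathepsins Ctsa, Ctsb, Ctsd, Ctsh, Ctsk, Ctsl, Ctss and Ctsz, the asparaginyl endopeptidase Lgmn (legumain), and Cst3 (cystatin C), a secreted inhibitor of cysteine cathepsins. All 10 were found among the 27141 genes listed, and all 10 were among the 19884 genes tested. RNA was sequenced from dHeps, damaged hepatocytes isolated from wild-type mice with CCl4 (carbon tetrachloride) liver injury by liver perfusion and kept for 16 days in serum-free medium. The groups were the solvent DMSO, the full cocktail of 5 compounds (5C), and 5C lacking 1 compound each, namely GSK429286A, which inhibits ROCK (5C-G), CID755673, which inhibits protein kinase D (5C-C), ETC-1002 (5C-E), forskolin, an activator of adenylate cyclase (5C-F), or salidroside (5C-S). Each group had 2 libraries, called A and B, except 5C-S, which had 1. The removal groups ask which compound the response to 5C depends on. Injury, culture medium and time were shared by every group, so none of the groups is uninjured liver.

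The members are proteases of several families and an inhibitor. Ctsb, Ctsh, Ctsk, Ctsl, Ctss and Ctsz are cysteine proteases of the papain family, Lgmn is a cysteine protease of another family that cleaves after asparagine and processes other cathepsins, Ctsd is an aspartic protease, and Ctsa is a serine carboxypeptidase that also protects lysosomal glycosidases. The enzymes are made as inactive proforms, sorted to the lysosome and activated there by its low pH. Hepatocytes contain them, but macrophages are the liver cells best known for large amounts, and Ctss, which trims the invariant chain of MHC class II, is largely an enzyme of antigen-presenting cells. Ctsk, the collagenase of osteoclasts, is also made by activated macrophages and fibroblasts.

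The libraries held 30195867 to 45491932 counts, and the 2 libraries of a group differed by more than counting noise in each of the 6 groups that had a pair. The chi-square of a pair over its degrees of freedom was 8.01 in DMSO, 14.1 in 5C and 28.9 in 5C-E. It was 62.9 in 5C-F, 75.7 in 5C-C and 86.6 in 5C-G. The main fit behind the tests below shares its spread over all groups, so its SE and adjusted p do not carry these differences. The labelled cell type was checked against its markers. The summed level of 9 hepatocyte markers lay between 3568 and 22930 FPKM over all libraries. Markers of other cells were present too, with 721.6 to 8366 FPKM for 20 macrophage markers, 1111 to 3998 FPKM for 12 stellate cell and fibroblast markers and 1456 to 3423 FPKM for 6 cholangiocyte markers. The 9 liver endothelial markers summed to 38.33 to 83.77 FPKM, and the 6 neutrophil and lymphocyte markers to 0.563 to 4.51 FPKM. In bulk RNA, fewer cells of a type and less RNA per cell cannot be told apart.

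The genes lie on 7 chromosomes of GRCm39, and Ctsk (chr3:95406178-95416732) and Ctss (chr3:95433963-95463717) are adjacent on the plus strand, 17230 bases apart. The others are Ctsa (chr2:164674778-164682961), Ctsb (chr14:63358384-63383372), Ctsd (chr7:141929646-141941775), Ctsh (chr9:89936205-89958148), Ctsl (chr13:64507151-64518704), Ctsz (chr2:174267304-174280832), Lgmn (chr12:102359122-102414682) and Cst3 (chr2:148713635-148717887). Ctsa, Ctsb, Ctsz and Lgmn overlap another listed gene on the opposite strand (Neurl2 and Pltp, Fdft1, Nelfcd, and Gm30198). The strand setting of the counting was not given in the sources used here, so reads from these overlaps may be shared. Ctss overlaps the listed processed pseudogene Hmgb1-ps5, and Ctsd overlaps Gm49369, which is not listed. Both overlaps lie on the member's own strand, where strand cannot separate the reads.

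The promoters of Ctsb, Ctsd, Ctss and Ctsk are shown because their genes had the largest differences between 5C and DMSO, from 250 bases before to 50 after the start of the canonical transcript, 5′ to 3′ on the gene's own strand. Ctsb (chr14:63359627-63359926, plus strand) and Ctsd (chr7:141941726-141942025, minus strand) were the only members whose window held the E-box CACGTG, capitalised below. It starts at an offset of 14 from the first base of the transcript in Ctsb and at an offset of -34 in Ctsd. The Ctss window (chr3:95433839-95434138, plus strand) held the PU.1 box GAGGAAGT, capitalised as ACTTCCTC since it lies on the other strand. The Ctsk window (chr3:95405994-95406293, plus strand) held none of the motifs searched.
Ctsb: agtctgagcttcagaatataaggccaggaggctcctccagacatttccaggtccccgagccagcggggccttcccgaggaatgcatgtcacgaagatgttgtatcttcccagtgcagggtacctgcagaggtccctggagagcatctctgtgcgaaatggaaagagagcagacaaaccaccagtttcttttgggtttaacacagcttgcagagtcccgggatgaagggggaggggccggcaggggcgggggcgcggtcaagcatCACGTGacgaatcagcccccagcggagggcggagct
Ctsd: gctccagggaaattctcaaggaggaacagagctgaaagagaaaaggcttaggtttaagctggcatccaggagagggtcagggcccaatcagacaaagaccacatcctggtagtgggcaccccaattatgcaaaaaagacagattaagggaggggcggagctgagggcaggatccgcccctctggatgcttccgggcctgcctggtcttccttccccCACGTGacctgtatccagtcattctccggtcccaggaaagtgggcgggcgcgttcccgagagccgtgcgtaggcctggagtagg
Ctss: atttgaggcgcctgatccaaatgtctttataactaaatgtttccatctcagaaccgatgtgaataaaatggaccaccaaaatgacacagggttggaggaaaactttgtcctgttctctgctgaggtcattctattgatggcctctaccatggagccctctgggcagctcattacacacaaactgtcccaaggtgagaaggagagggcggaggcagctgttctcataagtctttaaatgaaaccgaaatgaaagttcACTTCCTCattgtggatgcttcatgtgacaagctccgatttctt
Ctsk: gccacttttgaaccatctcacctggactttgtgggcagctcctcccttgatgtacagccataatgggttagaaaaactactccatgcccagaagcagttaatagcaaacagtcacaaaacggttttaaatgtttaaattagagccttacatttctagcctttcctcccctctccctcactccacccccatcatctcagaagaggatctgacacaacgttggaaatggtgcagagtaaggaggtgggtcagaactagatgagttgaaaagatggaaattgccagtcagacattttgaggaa

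Motifs were read on both strands in 17390 promoters of the same length. The E-box occurred in 8.86% of them. The PU.1 box occurred in 2.97%. The longer letters TCACGTGA, which contain the E-box and form the core of the CLEAR element bound by TFEB, occurred in 1.32% and in 1 member, Ctsb, where they overlap the capitals. The full palindromic CLEAR element occurred in 0.397% and in no member. The GC box GGGCGG occurred in 50.4% of promoters and in 6 members (Ctsb, Ctsd, Ctsl, Ctss, Ctsz and Lgmn). These are matches of letters and were not measured as binding sites.

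Together the 10 genes made up 0.975% and 1.03% of all counts in the DMSO libraries, 0.446% and 0.468% in 5C, and 1.22% and 1.46% in 5C-G. Their summed level, in FPKM, was 3588 and 3791 in DMSO, 1584 and 1669 in 5C, and 4343 and 5319 in 5C-G, so the libraries of these 3 groups did not overlap. The sums were 2406 and 3149 FPKM in 5C-C, 2670 and 2673 FPKM in 5C-F, 1761 and 1767 FPKM in 5C-E and 2056 FPKM in the single 5C-S library, all above 5C and below DMSO. By group mean, 5C-G was highest for 7 members, and DMSO (Ctss), 5C-C (Ctsl) and 5C-S (Ctsh) were highest for 1 each. The 5C group was lowest for 7 members, 5C-E for 2 (Ctsh and Cst3) and 5C-S for 1 (Ctss).

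**Figure D1:**
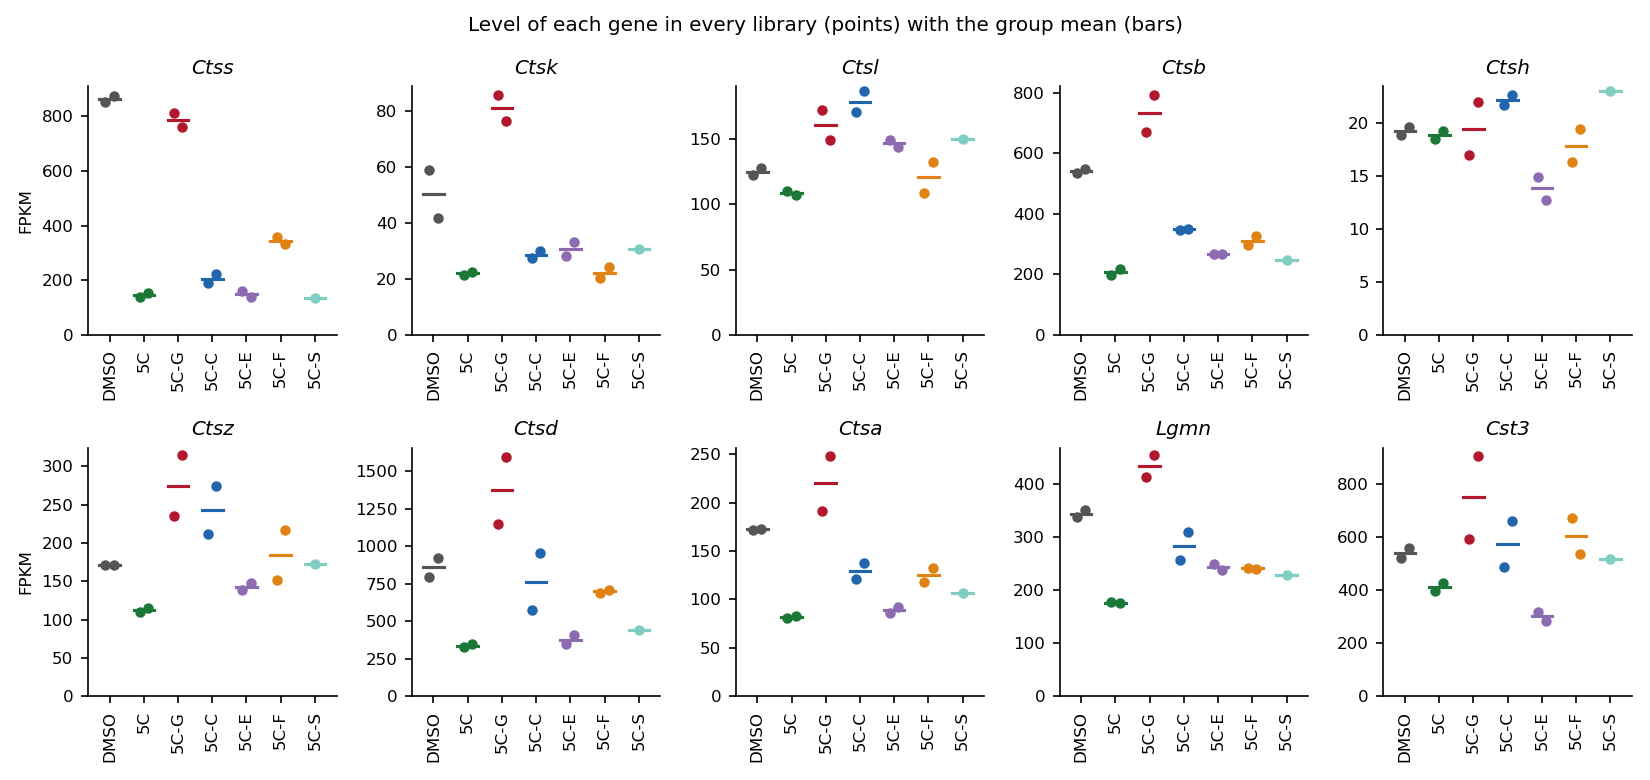
FPKM of each of the 10 genes (vertical axes, each starting at 0) in the 13 libraries of 7 groups, with points for libraries and bars for group means. Ctss stands near its DMSO level in 5C-G alone, whereas Ctsl and Ctsh differ little between DMSO and 5C.

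Ctss had the largest ratio between its highest and lowest library. Its FPKM was 851.3 and 873.7 in DMSO, 140.0 and 153.2 in 5C, 813.6 and 760.3 in 5C-G, 357.2 and 332.9 in 5C-F, 189.8 and 222.9 in 5C-C, 162.1 and 137.4 in 5C-E and 136.5 in 5C-S. The order by mean was DMSO, 5C-G, 5C-F, 5C-C, 5C-E, 5C and 5C-S, and only 5C-E and 5C overlapped among neighbours. Ctsb followed another order at 534.4 and 549.9 FPKM in DMSO, 199.3 and 218.1 in 5C, 671.3 and 793.1 in 5C-G, 346.3 and 351.0 in 5C-C, 297.0 and 325.5 in 5C-F, 266.6 and 268.2 in 5C-E and 248.4 in 5C-S. No neighbours in the order of Ctsb overlapped, with 5C-G highest and 5C lowest.

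By FPKM, Ctsk was the member with the second lowest level after Ctsh. That order rests on the authors' gene lengths, 1514 bases for Ctsk and 4506 for Ctsh. In 5C, Ctsk had fewer counts (1095 and 1050) than Ctsh (2788 and 2667). Ctsk was at 58.8 and 41.8 FPKM in DMSO, 21.6 and 22.6 in 5C, 85.7 and 76.4 in 5C-G, 27.4 and 30.1 in 5C-C, 20.3 and 24.2 in 5C-F, 28.2 and 33.1 in 5C-E and 30.8 in 5C-S. Only 5C-G and DMSO stood clear of every other group, and 5C-F overlapped 5C. Ctsz, an exopeptidase, gave 171.8 and 171.5 FPKM in DMSO, 110.4 and 114.7 in 5C, 235.1 and 314.1 in 5C-G, 212.0 and 274.8 in 5C-C, 151.4 and 217.3 in 5C-F, 139.0 and 147.2 in 5C-E and 172.1 in 5C-S. For Ctsz, 5C-G overlapped 5C-C, 5C-C overlapped 5C-F, the 5C-S library was at the level of DMSO, and 5C lay below all other libraries.

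Ctsl and Ctsh moved least between DMSO and 5C. Ctsl, a widely made endopeptidase, was at 122.1 and 128.1 FPKM in DMSO, 109.9 and 107.3 in 5C, 172.2 and 149.5 in 5C-G, 170.4 and 186.6 in 5C-C, 108.7 and 132.7 in 5C-F, 149.2 and 144.1 in 5C-E and 150.05 in 5C-S. The highest neighbours, 5C-C and 5C-G, overlapped, as did the 3 lowest, DMSO, 5C-F and 5C. Ctsh, an aminopeptidase, was low throughout, at 18.9 and 19.6 FPKM in DMSO, 18.5 and 19.3 in 5C, 17.0 and 22.0 in 5C-G, 21.8 and 22.6 in 5C-C, 16.3 and 19.4 in 5C-F, 14.9 and 12.8 in 5C-E and 23.0 in 5C-S. From 5C-C down to 5C-F each neighbour overlapped the next, and only 5C-E lay below all others.

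Ctsd, Ctsa and Lgmn, like Ctsb, had their highest group mean in 5C-G. The aspartic protease Ctsd was at 798.8 and 925.1 FPKM in DMSO, 330.0 and 347.4 in 5C, 1153 and 1596 in 5C-G, 574.0 and 955.2 in 5C-C, 692.6 and 710.0 in 5C-F, 346.4 and 411.4 in 5C-E and 442.6 in 5C-S. The DMSO, 5C-C and 5C-F libraries overlapped in sequence, as did 5C-E and 5C, and both 5C-G libraries were higher than any other. The carboxypeptidase Ctsa was at 171.8 and 172.8 FPKM in DMSO, 80.4 and 83.4 in 5C, 191.1 and 248.4 in 5C-G, 121.0 and 137.8 in 5C-C, 117.8 and 132.6 in 5C-F, 86.5 and 92.4 in 5C-E and 107.1 in 5C-S. Only 5C-C and 5C-F overlapped for Ctsa. Lgmn was at 337.8 and 349.7 FPKM in DMSO, 176.6 and 174.9 in 5C, 412.3 and 454.1 in 5C-G, 257.2 and 309.9 in 5C-C, 242.0 and 240.2 in 5C-F, 249.0 and 237.8 in 5C-E and 229.2 in 5C-S. Only 5C-E and 5C-F overlapped for Lgmn, and 5C was the lowest group for all 3 genes.

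The inhibitor Cst3 was at 521.7 and 558.5 FPKM in DMSO, 397.6 and 428.2 in 5C, 592.0 and 904.8 in 5C-G, 486.5 and 658.3 in 5C-C, 670.1 and 535.4 in 5C-F, 318.9 and 282.4 in 5C-E and 516.3 in 5C-S. The 4 highest groups (5C-G, 5C-F, 5C-C and DMSO) overlapped in sequence, and 5C-E lay below all others. Per summed FPKM of the 6 papain-family members, Cst3 gave a ratio of 0.297 and 0.313 in DMSO, 0.663 and 0.674 in 5C, 0.297 and 0.428 in 5C-G and 0.380 and 0.420 in 5C-E. The ratio was 0.503 and 0.605 in 5C-C, 0.509 and 0.705 in 5C-F and 0.679 in 5C-S. The RNA of the inhibitor was thus higher relative to its target enzymes in 5C than in DMSO in each library, with no overlap, and the ratio was not tested.

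**Figure D2:**
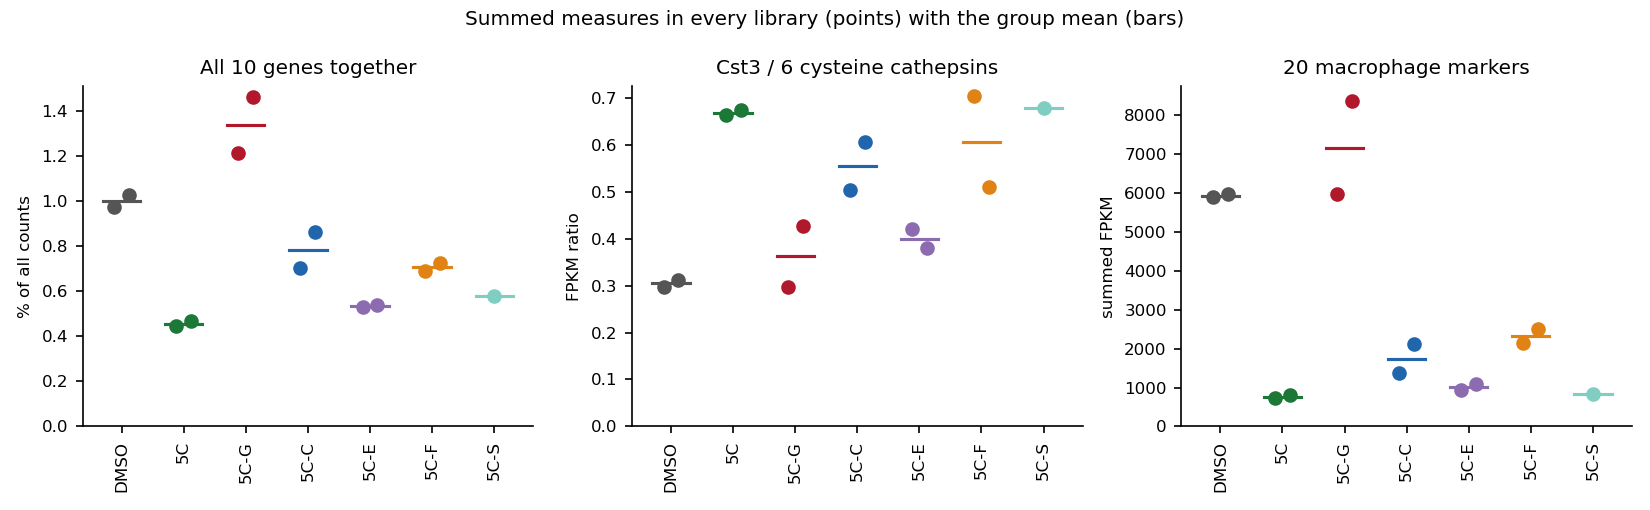
Summed measures in the 13 libraries (points, with group means as bars): the percent of counts on the 10 genes, the FPKM of Cst3 over that of 6 cysteine cathepsins, and the summed FPKM of 20 macrophage markers. The share of counts and the marker sum are both lowest in 5C and highest in 5C-G, and the Cst3 ratio is near 0.3 in DMSO and above 0.66 in 5C.

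With the full cocktail, 6 of the 10 genes fell against DMSO and none rose, where 4.09% of all genes tested fell and 2.25% rose. A gene is said to rise or fall where its edgeR quasi-likelihood adjusted p was under 0.05. Ctss fell by 2.63 ± 0.17 (log2, SE, n = 2 and 2 libraries; adjusted p = 3.4e-08), Ctsb by 1.45 ± 0.16 (8.9e-06), Ctsd by 1.42 ± 0.24 (0.00069) and Ctsk by 1.26 ± 0.19 (0.00029). Ctsa fell by 1.15 ± 0.18 (0.00044) and Lgmn by 1.04 ± 0.17 (0.00048), so all 6 were beyond a log2 fold change of 1, as were 2.89% of all genes in that direction. Ctsz (-0.68, adjusted p = 0.067), Cst3 (-0.46, 0.32), Ctsl (-0.28, 0.38) and Ctsh (-0.10, 0.85) did not pass. Ctsz passed with DESeq2, with every listed gene kept and in a fit of these 2 groups alone. In that fit of 2 groups Cst3 and Ctsl passed too. The median of the 10 log2 fold changes was -1.09, against 0.0077 over all genes. The 6 calls held without any 1 of the 4 libraries compared.

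Without the ROCK inhibitor, 9 of the 10 genes rose against 5C and none fell, where 14% of all genes rose and 11.5% fell. Ctss rose by 2.56 ± 0.17 (adjusted p = 9.5e-08), Ctsd by 2.17 ± 0.24 (9.3e-06), Ctsk by 2.01 ± 0.20 (2.6e-06) and Ctsb by 1.95 ± 0.16 (5.4e-07). Ctsa rose by 1.57 ± 0.18 (1.5e-05), Lgmn by 1.44 ± 0.17 (1.5e-05), Ctsz by 1.44 ± 0.21 (0.00016) and Cst3 by 1.01 ± 0.23 (0.0043), and these 8 were beyond a log2 fold change of 1, as were 7.47% of all genes. Ctsl rose by 0.70 ± 0.15 (0.0029), and Ctsh did not pass (0.19, adjusted p = 0.50). The median was 1.51, against -0.0064 over all genes. The call for Cst3 was lost without 5C library A, without 5C-G library B and with an offset for GC content and gene length, and that for Ctsl without 5C library B. With the offset Cst3 was at 0.080 and Ctsl at 1.24, and Cst3 was at 0.56 without 5C-G library B.

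Without the protein kinase D inhibitor, 9 members also rose against 5C and none fell, where 17.2% of all genes rose and 18.6% fell. Ctsd rose by 1.35 ± 0.24 (adjusted p = 0.00039) and Ctsz by 1.28 ± 0.21 (0.00026), the 2 members beyond a log2 fold change of 1, as were 9.65% of all genes. Ctsb (0.90, adjusted p = 0.0004), Ctsl (0.88, 0.00033), Lgmn (0.86, 0.00081), Ctsa (0.83, 0.002), Ctss (0.66, 0.0049), Cst3 (0.64, 0.039) and Ctsk (0.55, 0.033) also rose, and Ctsh (0.40, 0.11) did not pass. The median was 0.84, against 0 over all genes. GC content and length accounted for 17.7% of the variance of all fold changes in this comparison, and with an offset for them Cst3, whose transcript had the highest GC content of the members at 56.65%, turned to -0.53 (adjusted p = 0.048). With that offset Ctsl (1.74) and Ctsb (1.24) were beyond 1, whereas Ctsz (0.95) and Ctsd (0.71) were not. Ctsd was at 0.90 without 5C-C library B. Without 5C library A or 5C-C library B, Ctss, Ctsk and Cst3 no longer passed, and Ctsk and Cst3 did not pass without 5C library B, with total counts only or by limma.

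Without forskolin, 6 members rose against 5C and none fell, where 5.69% of all genes rose and 4.98% fell. Ctss rose by 1.34 ± 0.17 (adjusted p = 0.00027) and Ctsd by 1.15 ± 0.24 (0.0065), both beyond a log2 fold change of 1, as were 2.69% of all genes. Ctsz (0.80, 0.024), Ctsa (0.71, 0.021), Ctsb (0.67, 0.014) and Lgmn (0.56, 0.041) also rose. Cst3 (0.65, adjusted p = 0.081), Ctsl (0.25, 0.32), Ctsk (0.11, 0.78) and Ctsh (0.01, 0.99) did not pass. With the GC and length offset Ctsl was at 0.63 and passed (adjusted p = 0.029), and Cst3 was at 0.13. Cst3 passed with DESeq2, with every listed gene kept and in a fit of these 2 groups alone. The median was 0.66, against -0.011 over all genes. Leaving out either 5C library left only Ctss among the calls, 2 remained without 5C-F library B and 4 without 5C-F library A.

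Without ETC-1002, none of the 10 passed against 5C by edgeR, while 1.18% of all genes rose and 1.76% fell. The log2 fold changes were 0.40 ± 0.19 for Ctsk, 0.40 ± 0.17 for Lgmn, 0.36 ± 0.15 for Ctsl, 0.29 ± 0.16 for Ctsb and 0.28 ± 0.21 for Ctsz. They were 0.09 ± 0.23 for Ctsd, 0.06 ± 0.18 for Ctsa, -0.04 ± 0.16 for Ctss, -0.52 ± 0.19 for Ctsh and -0.53 ± 0.23 for Cst3. At an unadjusted p under 0.05 there were 5 members (Ctsh, Ctsl, Lgmn, Cst3 and Ctsk). DESeq2 and limma also called 0, whereas an edgeR fit of these 4 libraries alone called 4 (Ctsh, Ctsl, Lgmn and Cst3).

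**Figure D3:**
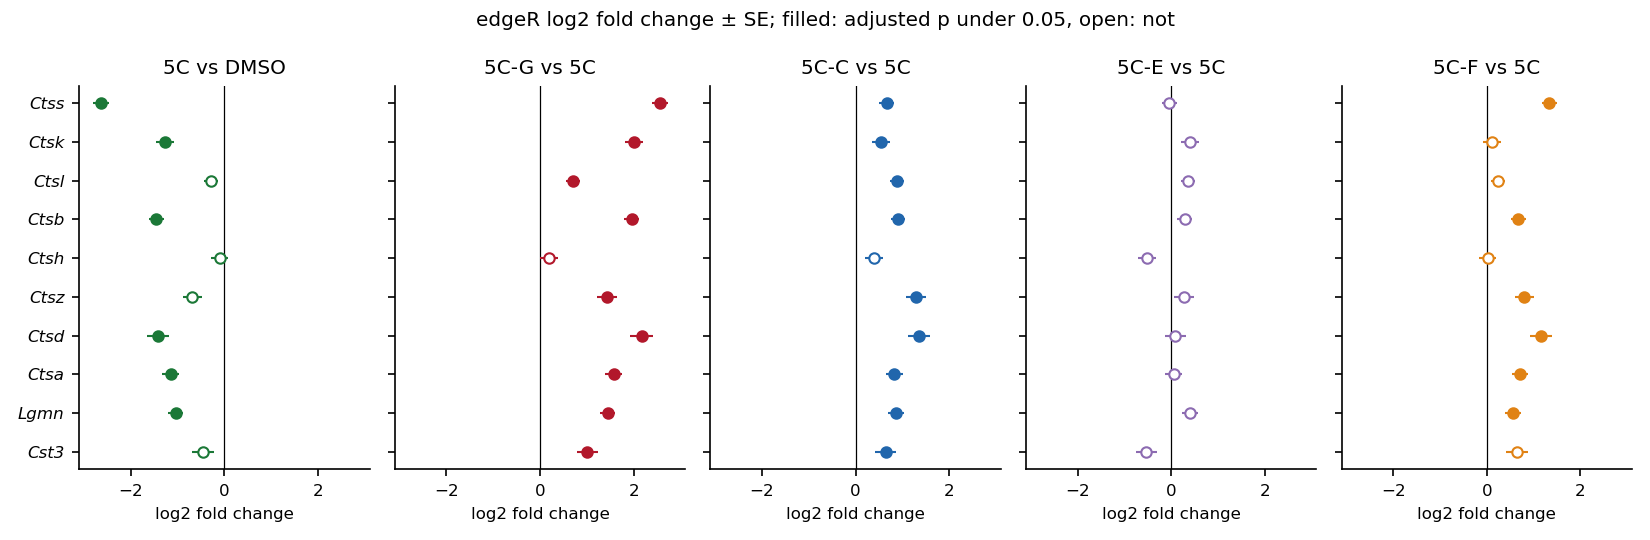
log2 fold change (horizontal axes) with SE of the 10 genes in 5 comparisons from 1 edgeR fit, n = 2 libraries a group, filled where the adjusted p was under 0.05. Ctss has the largest fall in 5C at -2.63 and the largest rise in 5C-G at 2.56, and no point is filled for 5C-E. All 5 comparisons share the 2 libraries of 5C.

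Salidroside removal gave 1 library and no test. In 9 of 10 cases the member lay above both 5C libraries, as did 40.3% of all genes, and Ctss lay below both, as did 35.5%. The largest difference on the log2(FPKM + 1) scale was 0.61 for Ctsz and the median 0.38, against 0.00019 over all genes. No member differed by more than 1, and 1.1% of all genes did.

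Against DMSO, 4 members rose in 5C-G, where 7.63% of all genes did. They were Ctsd (0.75 ± 0.23, adjusted p = 0.040), Ctsz (0.75 ± 0.21, 0.026), Ctsk (0.75 ± 0.19, 0.018) and Ctsb (0.50 ± 0.16, 0.043). None of these 4 calls held without 5C-G library B, whose values were the higher ones for Ctsd, Ctsz and Ctsb, or without either DMSO library. Without 5C-G library B, Ctsd was at 0.39, Ctsz at 0.42 and Ctsb at 0.28. With an offset for GC content and gene length, Ctsd (0.39, adjusted p = 0.23) did not pass and Ctsb was at 0.78. Ctss, at -0.07 ± 0.16 (0.83), did not pass. In 5C-C, Ctsl (0.60) and Ctsz (0.60) were above DMSO and Ctss (-1.97), Ctsk (-0.72) and Ctsb (-0.55) below it, where 17.2% of all genes rose and 19.9% fell. Without DMSO library A, only Ctss passed. With the GC and length offset, Ctsb (-0.16, adjusted p = 0.53) and Ctsz (0.44, 0.057) no longer passed, whereas Ctsd (-0.58, 0.025) did, Ctsl was at 1.42 and Cst3 turned from 0.18 (0.58) to -0.88 (0.0018).

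In 5C-F, Ctss (-1.30, adjusted p = 9e-05), Ctsk (-1.16, 0.00072) and Ctsb (-0.78, 0.0034) were below DMSO, where 8.17% of all genes fell. In 5C-E, 7 members were below DMSO, where 5.33% of all genes fell, with Ctss at -2.67, Ctsd at -1.33, Ctsb at -1.16, Ctsa at -1.09, Cst3 at -0.99, Ctsk at -0.86 and Lgmn at -0.64. Cst3 is the member that passed here and not in 5C against DMSO, and the difference has its own test in the comparison of 5C-E with 5C (-0.53, adjusted p = 0.29). Neither Lgmn nor Cst3 passed in 5C-E when any 1 of the 4 libraries was left out or by limma, and Ctsk was lost without DMSO library A or 5C-E library A. The comparisons with DMSO share its 2 libraries.

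The removal of the ROCK inhibitor was set directly against the other removals, a choice made after the levels were seen. Against 5C-C, 6 members were higher in 5C-G, where 6.99% of all genes were. These were Ctss (1.90 ± 0.17, adjusted p = 1.6e-06), Ctsk (1.46 ± 0.19, 7.3e-05), Ctsb (1.05 ± 0.16, 0.00027), Ctsd (0.83 ± 0.23, 0.028), Ctsa (0.75 ± 0.18, 0.011) and Lgmn (0.59 ± 0.17, 0.028). Ctsz at 0.16 ± 0.21 and Ctsl at -0.19 ± 0.15 did not pass, and both had risen in each of these removals against 5C. Without 5C-G library B or 5C-C library A, 3 of the 6 calls were left. In a fit of these 2 groups alone 2 were, those for Ctss and Ctsk, with Ctsb at an adjusted p of 0.070. With 1 library left out, the lowest values were 0.41 for Ctsd, 0.44 for Ctsa and 0.36 for Lgmn. Cst3 did not pass (0.37, adjusted p = 0.34), whereas with the GC and length offset it was at 0.61 and passed (0.036).

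Against 5C-F, the same count of 6 was higher in 5C-G, where 6.63% of all genes were. The largest was Ctsk (1.90 ± 0.19, adjusted p = 7.6e-06), which had not passed in 5C-F against 5C, followed by Ctsb (1.28, 4.8e-05), Ctss (1.22, 9.5e-05), Ctsd (1.02, 0.0065), Lgmn (0.89, 0.0014) and Ctsa (0.86, 0.0035). The call for Ctsd was lost without 5C-F library A and without 5C-G library B (0.66), and those for Ctsa and Lgmn in a fit of these 2 groups alone. Against 5C-E, 9 members were higher, where 11.2% of all genes were, from 0.71 for Ctsh to 2.60 for Ctss, and Ctsl (0.33, adjusted p = 0.13) did not pass. With the GC and length offset Ctsl was at 0.71 and passed (adjusted p = 0.0092). Cst3 (1.54) and Ctsh had 5C-E as their lowest group. Cst3 was at 0.69 with the GC and length offset. The call for Ctsh was lost without 5C-G library B, without either 5C-E library and in a fit of these 2 groups alone. The Ctsh call was also lost with total counts only, with the GC and length offset and by limma.

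Other family members were read from companion lists. Of 5 other cathepsins tested, Ctsc, which activates granule proteases, fell in 5C against DMSO (-0.85 ± 0.17, adjusted p = 0.0035) and rose in 5C-G against 5C (0.49 ± 0.17, 0.041), with group means of 23.96 FPKM in DMSO, 13.96 in 5C and 17.85 in 5C-G. Ctsf rose in 5C-G against 5C (0.87 ± 0.22, 0.0073) from a mean of 8.05 to 13.27 FPKM. Ctso fell in 5C-C against 5C (-0.75, 0.0046), the opposite direction to the 9 members. Ctse, an aspartic protease outside the lysosome, had means of 0.897 FPKM in DMSO, 5.91 in 5C and 12.46 in 5C-C, and did not pass in 5C against DMSO (2.65 ± 0.88, adjusted p = 0.094) or in 5C-C against 5C (1.23 ± 0.81, 0.26), whereas it was higher in 5C-C than in DMSO (3.87 ± 0.91, 0.0031).

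Among 10 other cystatins and inhibitors tested, none passed in 5C against DMSO. Cstb (cystatin B), the cytosolic inhibitor, rose in 5C-G (1.12, adjusted p = 0.00031), 5C-C (1.03, 0.00037) and 5C-F (0.83, 0.0089) against 5C, with means of 147.1 FPKM in DMSO, 142.3 in 5C, 280.7 in 5C-G, 258.2 in 5C-C and 236.3 in 5C-F. Serpinb6a, a serpin that inhibits cathepsin G, rose in 5C-G (0.88, 0.002) and 5C-C (0.72, 0.005). Kng1, a kininogen secreted by hepatocytes that carries cystatin domains, fell in 5C-G (-0.59, 0.022) and 5C-E (-0.74, 0.029) and rose in 5C-F (0.77, 0.013). Serpinb6b fell in 5C-G (-0.50, 0.04). Kng2 rose in 5C-C (0.87, 0.0013) and 5C-F (0.88, 0.0068), and Fetub, a hepatocyte protein with cystatin domains, in 5C-C (0.61, 0.046) and 5C-F (0.76, 0.044).

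Over all 99 companion genes tested, 22 (22.2%) fell and 2 rose in 5C against DMSO, 51 (51.5%) rose and 5 fell in 5C-G against 5C, 39 (39.4%) rose and 10 fell in 5C-C, 12 (12.1%) rose and 4 fell in 5C-F, and 1 rose and 1 fell in 5C-E. Of all genes, 4.09% fell and 2.25% rose in 5C against DMSO, and 14% rose and 11.5% fell in 5C-G against 5C. The shares of all genes that rose and fell were 17.2% and 18.6% in 5C-C, 5.69% and 4.98% in 5C-F and 1.18% and 1.76% in 5C-E. Of 33 glycosidases, sulfatases and lipases, 11 fell and 1 rose (Arsb, 0.69) in 5C, and 22 rose and 1 fell (Ids, -0.71) in 5C-G. They included Gusb (beta-glucuronidase, -1.55 and 1.78), Hexa (1.67 in 5C-G) and Acp5 (-1.46 in 5C), the phosphatase used as an osteoclast marker. Of 7 other lysosomal peptidases, Dpp7 fell by 1.26 in 5C and rose by 1.83 in 5C-G, and the aspartic protease Napsa fell by 2.58 and rose by 2.50, from means of 4.59 FPKM in DMSO, 0.807 in 5C and 4.15 in 5C-G.

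Of 17 membrane proteins, 5 fell and 1 rose (Laptm4b, 0.86) in 5C, and 9 rose and 2 fell (Laptm4b, -0.77, and Lamp2, -0.61) in 5C-G. The largest changes were those of the phagosomal metal transporter Slc11a1 (-2.48 and 2.88). Cln3 (-0.89 and 1.34) moved likewise, the cholesterol exporter Npc1 fell in 5C (-1.03) and its luminal partner Npc2 rose in 5C-G (0.95). The proton pump that acidifies the lysosome had 1 of 17 subunits fall in 5C (Atp6ap1, -0.54) and 10 rise in 5C-G, led by Atp6v0d2 (1.89), Atp6v0b (1.49) and Atp6v1f (1.23). Of 10 genes of sorting and transcription, Tfec, a relative of Tfeb found in macrophages, fell by 2.64 in 5C and rose by 2.94 in 5C-G, at means of 1.41, 0.237 and 1.64 FPKM in DMSO, 5C and 5C-G. Nagpa (-0.91 and 1.37), which uncovers the mannose 6-phosphate tag, did likewise, and Tfeb, an activator of lysosomal genes, rose in 5C-G (0.99).

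**Figure D4:**
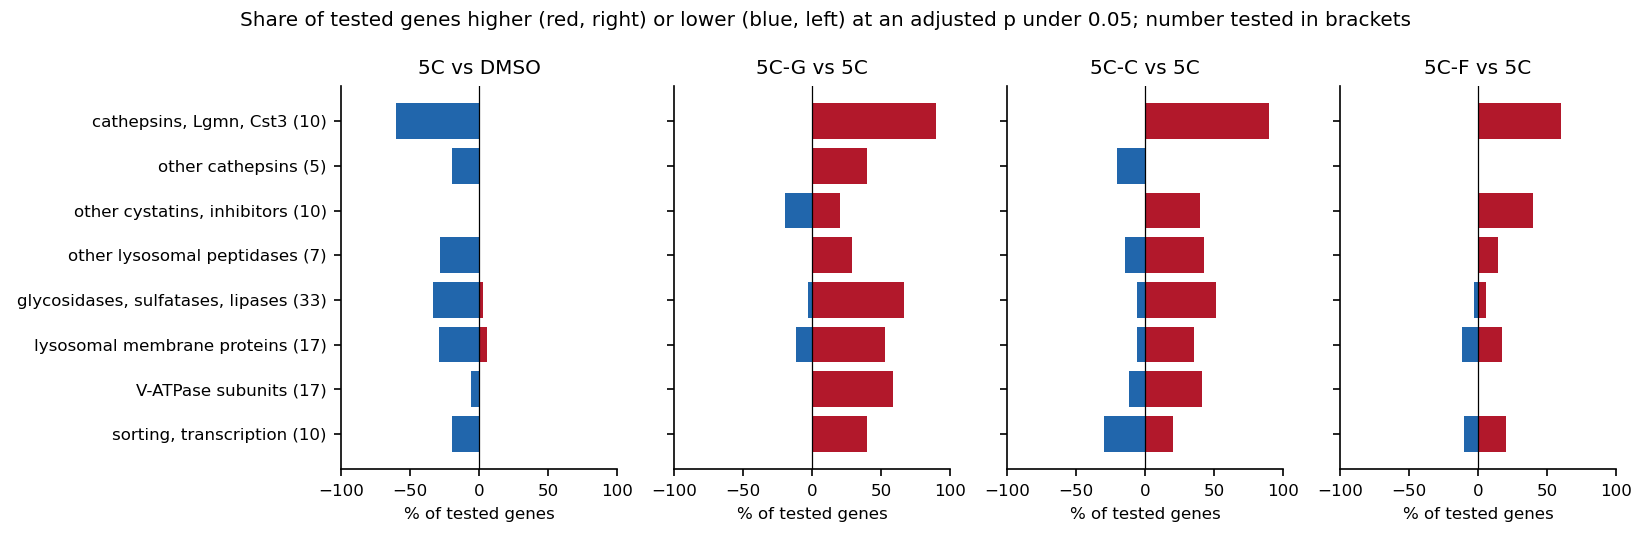
Percent of tested genes of each list that were higher (right) or lower (left) at an adjusted p under 0.05 in 4 comparisons, with the number tested in brackets. Among the lists drawn, the 10 genes described here have the longest bar to the left in 5C against DMSO (6 of 10) and the longest to the right in 5C-G against 5C (9 of 10).

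Macrophage markers mostly moved in the direction of the members that passed in 5C against DMSO and in 5C-G, 5C-C and 5C-F against 5C. The summed levels of several other marker lists differed between the groups too. The summed level of the macrophage markers was 5887 to 5961 FPKM in DMSO, 721.6 to 807.4 in 5C, 5969 to 8366 in 5C-G, 2149 to 2501 in 5C-F, 1383 to 2107 in 5C-C, 937.5 to 1096 in 5C-E and 826.7 in 5C-S. Of the 20 markers, 17 fell in 5C against DMSO (median over the list -2.95 on the log2 scale), 17 rose in 5C-G (2.95), 16 in 5C-F (1.58) and 13 in 5C-C with 1 lower (1.12), and none passed in 5C-E (0.26). Against DMSO, 17 of the 20 were lower and 1 higher in 5C-C (median -1.85), and likewise in 5C-F (-1.31). The medians of the 10 members against DMSO were -0.13 in 5C-C and -0.36 in 5C-F. All 20 macrophage markers had counts in every group with 2 libraries, and Clec4f and Timd4 were at 0 in 5C-S. The 7 osteoclast markers, of which Acp5 and Atp6v0d2 also stand in the companion lists, summed to 50.54 to 53.97 FPKM in DMSO, 19.95 to 21.15 in 5C and 38.04 to 57.90 in 5C-G, with Calcr at 0 in each of these groups. The 12 stellate cell and fibroblast markers summed to 1475 to 1565 FPKM in DMSO, 1729 to 1730 in 5C, 2450 to 3073 in 5C-G and 3434 to 3998 in 5C-C. Their members moved in both directions, with 6 higher and 4 lower in 5C-G against 5C (median 0.45) and 4 higher and 6 lower in 5C-C against 5C (median -0.63). The 9 hepatocyte markers summed to 11360 to 12610 FPKM in DMSO, 11670 to 11840 in 5C, 6928 to 8349 in 5C-G, 5358 to 5900 in 5C-C, 3568 to 4099 in 5C-E, 18510 to 22930 in 5C-F and 7856 in 5C-S. Of these 9, 1 rose and 1 fell in 5C against DMSO (median -0.053), 1 rose and 6 fell in 5C-G against 5C (-1.05), 2 rose and 5 fell in 5C-C (-0.81), 6 fell in 5C-E (-1.15) and 6 rose in 5C-F (0.85). The 9 liver endothelial markers summed to 50.83 to 53.65 FPKM in DMSO, 39.20 to 40.58 in 5C with Pecam1 and Cdh5 at 0, 65.42 to 83.77 in 5C-G, 55.12 to 56.07 in 5C-C, 38.33 to 40.59 in 5C-F and 60.63 to 61.79 in 5C-E. Of them, 1 fell in 5C against DMSO, and 3 rose and 2 fell in 5C-G against 5C. The 6 neutrophil and lymphocyte markers summed to 2.82 to 4.51 FPKM in DMSO, 0.563 to 0.944 in 5C with 5 of them at 0, 2.05 to 3.84 in 5C-G and 3.72 to 4.20 in 5C-C. The 6 cholangiocyte markers summed to 2598 to 2958 FPKM in DMSO, 1639 to 1977 in 5C, 1982 to 2437 in 5C-G, 1852 to 2111 in 5C-C, 3166 to 3423 in 5C-F and 1514 to 1583 in 5C-E, and 1 rose and 1 fell in 5C against DMSO. The part of these cells in the protease results was not tested.

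Over the 13 libraries, Pearson's r of log2(FPKM + 1) described which of 12509 genes were most like each member. The libraries fall into the 7 treatment groups, so these values are a description only. Ctss was most like Lyz2 (r = 0.994), the lysozyme of macrophages, then Tmem106a and Pla2g7 (0.993 each). Ctsa was most like Tnfaip8l2 (0.988), Ninj1 (0.975) and the complement gene C1qb (0.971), and Ctsd was most like Ccl8 (0.982), a chemokine, with Ninj1 (0.973) and Tnfaip8l2 (0.971) again next. Ctsb was most like Lyl1 (0.974), Ifi27l2a and Grn (0.973 each), the last of which encodes progranulin, a lysosomal protein cleaved by cathepsins. Lgmn had another member, Ctsb (0.969), between Adam15 (0.974) and Rab3il1 (0.962).

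Ctsk was most like Hmox1 (0.969), which degrades haem, Ehbp1l1 (0.965) and Cdkn2b (0.949), and Ctsz like Blvrb (0.988), Trir (0.976) and Bin1 (0.974). Cst3 was most like Tmsb4x (0.948), Msrb1 (0.945) and Tmem109 (0.938). Ctsl was most like 2610306M01Rik (0.966), Daxx (0.938) and Gins3 (0.936), and Ctsh had the weakest likeness, with Sdhaf1 (0.880), Folr1 (0.862) and Dusp28 (0.826). Among the 45 pairs of members the median r was 0.721, from 0.0302 to 0.971.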

How the data were processed

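RNA-seq was read from 13 libraries of cultured dHeps. Per the labels and the study's methods, the authors isolated total RNA, made NEBNext Ultra libraries, sequenced paired reads and counted them per gene with featureCounts (Subread) on GRCm39. The annotation release, strand setting and version of the counter for these libraries were not given in the sources used here. The deposited counts are whole numbers, not normalised. The deposited FPKM values were the authors' counts per gene length and total, since 27140 of 27141 genes gave 1 implied length within 0.2% (Dpep2, the other gene, was left out of FPKM values). Groups came from the labels. Table columns name the group and not the labelled number, so libraries were called A and B. The study's methods say that n always counts separate biological replicates, and the labels do not say whether these are animals or cultures.

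Counts were tested with edgeR 4.0.16 (R 4.3.3): TMM factors, filterByExpr with a minimum count of 10, 1 quasi-likelihood fit of all 13 libraries with a mean per group (6 residual degrees of freedom), and Benjamini-Hochberg adjustment over the 19884 genes tested. edgeR took the place of DESeq, which the study's methods name. The common biological coefficient of variation was 0.261. SE is the fold change divided by the root of the F statistic. Alternatives were total counts only, other filters, 2 groups only, DESeq2 1.42.0, limma 3.58.1 on log2(FPKM + 1) and log2(FPKM + 0.1), a GC and length offset and leaving out each library. The code was tested on simulated data. All 10 members are named. From each companion list the text names up to 3 passing genes of largest change in 5C against DMSO and in 5C-G against 5C, every other cathepsin or inhibitor with a mean of at least 1 FPKM and, chosen after values were seen, a few of their further changes and the genes of a list that moved against its majority. A gene that this rule names is not reported here. The genes most like a member are the 3 of highest r among genes tested with a mean of at least 1 FPKM. Members and lists were chosen with earlier results of these data known. Transcript starts and GC content came from GENCODE M39 on GRCm39. Comparisons share libraries, so their values stand side by side without a test of overlap.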

Additional observations from a re-analysis of the deposited data

How the results depend on the processing

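The 10 log2 fold changes in 12 comparisons gave 1440 values under the alternatives, of which 1236 kept their direction and their side of the threshold, 121 lost and 42 gained the threshold, and 41 changed sign, 1 of them from a passing value (Cst3 in 5C-C against 5C) and 1 to a passing value of the other sign from one that did not pass (Cst3 in 5C-C against DMSO, with the GC and length offset). Of 70 passing values, 41 passed under all alternatives run, among them the 6 in 5C against DMSO. The cause of the changes was not tested. With a log2 fold change beyond 1 required as well, the number of members passing was 2 rather than 9 in 5C-C against 5C, 2 rather than 6 in 5C-F against 5C, 0 rather than 4 in 5C-G against DMSO, 1 rather than 5 in 5C-C against DMSO, 4 rather than 7 in 5C-E against DMSO and 3 rather than 6 in 5C-G against 5C-C, and the number of genes of all tested passing was 2607 rather than 5085 in 5C-G against 5C, 4011 rather than 7115 in 5C-C against 5C, 962 rather than 2122 in 5C-F against 5C, 1160 rather than 2879 in 5C-G against DMSO, 4391 rather than 7371 in 5C-C against DMSO, 1472 rather than 2892 in 5C-F against DMSO, 1463 rather than 2318 in 5C-G against 5C-C, 1851 rather than 3892 in 5C-G against 5C-E and 1597 rather than 2481 in 5C-G against 5C-F. With only the libraries of the 2 groups compared, the number of members passing was 4 rather than 0 in 5C-E against 5C, 0 rather than 4 in 5C-G against DMSO, 5 rather than 3 in 5C-F against DMSO and 2 rather than 6 in 5C-G against 5C-C, and the number of genes of all tested passing was 5028 rather than 1261 in 5C against DMSO, 2319 rather than 584 in 5C-E against 5C, 1205 rather than 2879 in 5C-G against DMSO, 3573 rather than 1714 in 5C-E against DMSO, 856 rather than 2318 in 5C-G against 5C-C and 1489 rather than 2481 in 5C-G against 5C-F. With DESeq2, the number of genes of all tested passing was 1112 rather than 584 in 5C-E against 5C and 3225 rather than 2122 in 5C-F against 5C. With every listed gene kept, the number of genes of all tested passing was 1097 rather than 584 in 5C-E against 5C. With at least 10 counts in every library, the number of members passing was 2 rather than 4 in 5C-G against DMSO. With limma on log2(FPKM + 1), the number of members passing was 1 rather than 4 in 5C-G against DMSO, and the number of genes of all tested passing was 1135 rather than 2122 in 5C-F against 5C and 1455 rather than 2879 in 5C-G against DMSO. With limma on log2(FPKM + 0.1), the number of members passing was 3 rather than 6 in 5C-F against 5C and 1 rather than 4 in 5C-G against DMSO, and the number of genes of all tested passing was 365 rather than 584 in 5C-E against 5C, 1015 rather than 2122 in 5C-F against 5C and 1246 rather than 2879 in 5C-G against DMSO. With the GC and length offset, the number of genes of all tested passing was 1765 rather than 2879 in 5C-G against DMSO. Leaving out each library in turn, members passing were 1 to 4 in 5C-F against 5C, 0 to 7 in 5C-G against DMSO, 1 to 4 in 5C-C against DMSO, 4 to 5 in 5C-E against DMSO and 3 to 7 in 5C-G against 5C-C. Leaving out each library in turn, genes of all tested passing were 649 to 674 in 5C against DMSO, 2272 to 6343 in 5C-G against 5C, 4569 to 7226 in 5C-C against 5C, 140 to 434 in 5C-E against 5C, 309 to 1378 in 5C-F against 5C, 217 to 4889 in 5C-G against DMSO, 4544 to 7407 in 5C-C against DMSO, 891 to 1092 in 5C-E against DMSO, 874 to 1884 in 5C-F against DMSO, 1529 to 3195 in 5C-G against 5C-C, 1341 to 5368 in 5C-G against 5C-E and 1456 to 3164 in 5C-G against 5C-F.

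With the GC and length offset, Ctsh -0.14 in 5C-G against 5C, Ctsh -0.013 and Cst3 -0.53 in 5C-C against 5C, Ctsa -0.15, Ctsd -0.055 and Ctss 0.26 in 5C-E against 5C, Ctsh -0.28 and Ctsk -0.041 in 5C-F against 5C, Ctsh -0.25 and Cst3 -0.27 in 5C-G against DMSO, Ctsh -0.12 and Cst3 -0.88 in 5C-C against DMSO, Ctsl 0.30 and Cst3 -0.22 in 5C-F against DMSO and Cst3 -0.051 in 5C-G against 5C-F changed sign. With total counts only, Ctss 0.031 in 5C-E against 5C and Ctsh -0.080 in 5C-F against 5C changed sign. With limma on log2(FPKM + 1), Ctss 0.027 in 5C-E against 5C and Ctsh -0.082 in 5C-F against 5C changed sign. With limma on log2(FPKM + 0.1), Ctss 0.027 in 5C-E against 5C and Ctsh -0.086 in 5C-F against 5C changed sign. Leaving out each library in turn, the sign also changed within the following ranges, with the library whose absence changed it in brackets, namely -0.11 to 0.44 for Ctsh in 5C-G against 5C (without 5C-G library B), -0.038 to 0.24 for Ctsd in 5C-E against 5C (without 5C-E library B), -0.14 to 0.074 for Ctss in 5C-E against 5C (without 5C library B or 5C-E library B), -0.072 to 0.096 for Ctsh in 5C-F against 5C (without 5C library A or 5C-F library B), -0.22 to 0.34 for Ctsh in 5C-G against DMSO (without 5C-G library B) and -0.53 to 0.29 for Ctsd in 5C-C against DMSO (without DMSO library B or 5C-C library A). The ranges were -0.090 to 0.43 for Cst3 in 5C-C against DMSO (without 5C-C library B), -0.14 to 0.068 for Ctsl in 5C-F against DMSO (without DMSO library B or 5C-F library A), -0.12 to 0.32 for Ctsz in 5C-F against DMSO (without 5C-F library B), -0.030 to 0.38 for Cst3 in 5C-F against DMSO (without 5C-F library A) and -0.51 to 0.046 for Ctsh in 5C-G against 5C-C (without 5C-G library A). They were -0.18 to 0.42 for Ctsz in 5C-G against 5C-C (without 5C-C library A or 5C-G library B), -0.079 to 0.72 for Cst3 in 5C-G against 5C-C (without 5C-G library B), -0.13 to 0.43 for Ctsh in 5C-G against 5C-F (without 5C-G library B) and -0.088 to 0.71 for Cst3 in 5C-G against 5C-F (without 5C-G library B).

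Scaling by total counts moved the median of all genes by -0.13 in 5C-G against 5C, -0.15 in 5C-C against 5C, 0.15 in 5C-E against DMSO and -0.20 in 5C-G against 5C-E. A library left out leaves its group with 1, whose spread is assumed to be that of the other groups. The alternatives for 5C-G against the other removals were chosen after seeing the data. No paired analysis was possible because the labels give DMSO and 5C different replicate numbers and give the removal groups none.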
